A study of Mus musculus with 8 samples.

Results

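The genes described here are 29 genes of sterol and fatty acid synthesis and of its control, chosen by symbol from a count table of 24421 genes, and all 29 symbols were found in it. RNA was sequenced from CD4+ T cells sorted from the knee joints of male mice, 16 weeks old, in which arthritis had been induced with an antigen. The 4 wild-type libraries and the 4 Slc7a5 knockout libraries shared the arthritis, the sex, the age and the sorted cell type. Slc7a5 encodes a chain of LAT1, a transporter that brings leucine and other large neutral amino acids into T cells. How the gene was deleted, in which cells of the animal, and whether each library came from its own mouse are not given in the sources used here, and each p-value therefore reflects how much the libraries vary, a variation that may be technical. The comparison addresses how transcripts for building membrane lipids stand in T cells of the inflamed joint when this transporter is lost.

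Cells make cholesterol from acetyl-CoA through mevalonate, farnesyl diphosphate, squalene and lanosterol, and they make fatty acids from acetyl-CoA through malonyl-CoA. The SREBP transcription factors drive both routes: SREBP2, the product of Srebf2, acts mainly on the sterol genes, and SREBP1, the product of Srebf1, acts more on the fatty acid genes. SCAP escorts the precursors out of the endoplasmic reticulum when sterols are scarce, and the INSIG proteins hold SCAP back when sterols are plentiful. In T cells the SREBP route is known to support growth after activation, and mTORC1, which senses amino acids, is known to promote it. The 29 genes comprised a sterol arm of 17 genes, a fatty acid arm of 7 genes and 5 SREBP control genes.

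Stretches of the promoters of 5 of these genes are shown, because SREBP acts on such promoters together with NF-Y, a factor that binds the CCAAT box. The sequences are RefSeq's, on the gene's own strand of GRCm38.p6, and the capitals mark each TCACNCCAC (a consensus of the sterol response element) and each CCAAT on either strand. The CCAATTGG in Fasn holds 2 overlapping matches, 1 on each strand.
Hmgcs1, chr13:119690102-119690377, plus strand: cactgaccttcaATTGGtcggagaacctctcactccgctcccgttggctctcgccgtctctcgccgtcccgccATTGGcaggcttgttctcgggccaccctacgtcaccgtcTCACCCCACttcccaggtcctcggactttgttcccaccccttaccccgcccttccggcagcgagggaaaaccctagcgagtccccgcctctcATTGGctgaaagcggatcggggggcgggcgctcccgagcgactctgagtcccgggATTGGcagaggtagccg
Msmo1, chr8:64733617-64733750, minus strand: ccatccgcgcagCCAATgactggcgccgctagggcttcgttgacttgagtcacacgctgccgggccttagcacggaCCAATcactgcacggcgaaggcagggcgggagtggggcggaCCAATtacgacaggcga
Ebp, chrX:8193551-8193694, minus strand: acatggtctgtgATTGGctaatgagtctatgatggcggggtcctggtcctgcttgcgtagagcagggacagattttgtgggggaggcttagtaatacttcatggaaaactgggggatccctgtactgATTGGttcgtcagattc
Insig1, chr5:28071184-28071212, plus strand: cgccctcctcccATTGGctccggcggcct
Fasn, chr11:120824590-120824649, minus strand: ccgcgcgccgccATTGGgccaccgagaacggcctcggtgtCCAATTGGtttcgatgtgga

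Promoters of 300 bases were available for 23 of the 29 genes (30 promoters, since some genes have more than 1). CCAAT was found on either strand in 12 of 15 promoters of the sterol arm (80%), in 3 of 5 of the fatty acid arm (60%) and in 5 of 10 of the SREBP control genes (50%), against 37.4% of all 32851 promoters in the table. At least 2 matches were held by 9 of 15 promoters of the sterol arm (60%) and 2 of 5 of the fatty acid arm (40%). The share was 1 of 10 in the SREBP control genes (10%), against 11.7% of all promoters. TCACNCCAC was found in 1 member promoter, that of Hmgcs1, and in 1.24% of all promoters. A match describes letters in this window and is not a measured binding site.

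The libraries held 18837650 to 36436923 counts. The targeted gene, Slc7a5, was counted 385, 194 and 410 times in wild-type replicates 1 to 3, and 0 times in wild-type replicate 4 and in every knockout library. The label of wild-type replicate 4 is therefore not backed by this gene. The 7 T cell markers counted here were detected in all 8 libraries, at a summed level of 4986 to 6358 CPM (counts scaled to a common library size) in wild type and 4281 to 5159 in knockout. Cd4, the marker of the sort, was at 344 to 570.3 CPM in 7 libraries and at 1.78 CPM (34 counts) in knockout replicate 4. Knockout replicate 4 stood apart: its rank correlation across genes with the other 7 libraries was 0.489 to 0.544, and 56.3% of the tested genes had a count in it, against 80.7% to 97.1% in the others. Results that lean on this library are given with and without it. In edgeR's quasi-likelihood test 0 of the 8489 genes that passed the filter on low counts were called at an adjusted p under 0.05 (0%). An unadjusted p under 0.05 was found for 326 (3.84%), and DESeq2 called 387 of 10659 genes (3.63%). Of the 7 T cell markers 6 had lower estimates in knockout, against 55% of all tested genes. Cd3e and Cd5 (2 of 7) had every knockout library below every wild-type library, against 4.62%. Cd5 was lower and Cd28 higher at unadjusted p = 0.0271 and 0.0423 in edgeR.

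Of the 29 genes 27 passed the filter and were tested. None was called in edgeR (0 of 27, against 0% of all tested genes) and none in DESeq2 (0 of 24 with an adjusted p, against 3.63%). At an unadjusted p under 0.05 there were also 0 of 27, against 3.84% of all tested genes (1.87% higher and 1.97% lower in knockout). In edgeR 15 of the 27 members had a lower estimate in knockout (55.6%, against 55% of all tested genes), and 12 had a higher one, against 45%. Split by arm, the counts were uneven. In the fatty acid arm 5 of 6 tested members had lower estimates with a median log2 fold change of −1.09, in the sterol arm 10 of 16 with a median of −0.42, and in the SREBP control genes 0 of 5 with a median of 0.80. The median over all tested genes was −0.12. Those 3 splits were the same under all 3 other scalings of the libraries. Without knockout replicate 4 they were 5 of 6, 13 of 16 and 0 of 5, with medians of −0.69, −0.38 and 0.32. The 5 fatty acid genes were then not the same ones, since Fasn turned lower and Elovl6 turned higher. Without wild-type replicate 4 the splits were 4 of 6, 9 of 16 and 0 of 5, with medians of −1.26, −0.26 and 0.67. Without knockout replicate 2 the control genes split into 3 higher and 2 lower (Srebf1 and Insig1). With an offset for GC content, which moved the median of all tested genes to 0.17, the splits were 5 of 6, 8 of 16 and 0 of 5. In limma voom, where that median was −1.28, the splits were 6 of 6, 11 of 16 and 2 of 5.

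**Figure D1:**
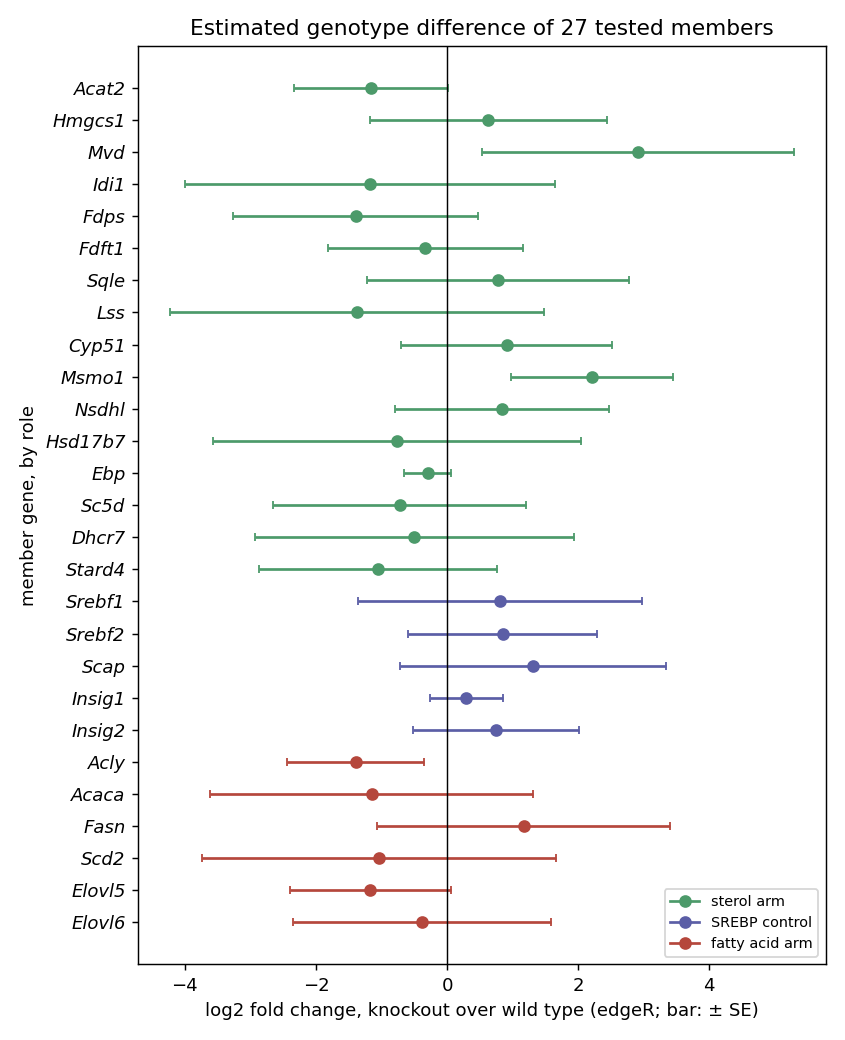
Log2 fold change, knockout over wild type (x axis, edgeR estimate; bars, ± SE), of the 27 tested members (y axis, ordered by role; colours, arms). All 5 SREBP control genes lie right of 0 and 5 of 6 fatty acid genes left of it, while 0 of 27 passed the test.

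**Figure D2:**
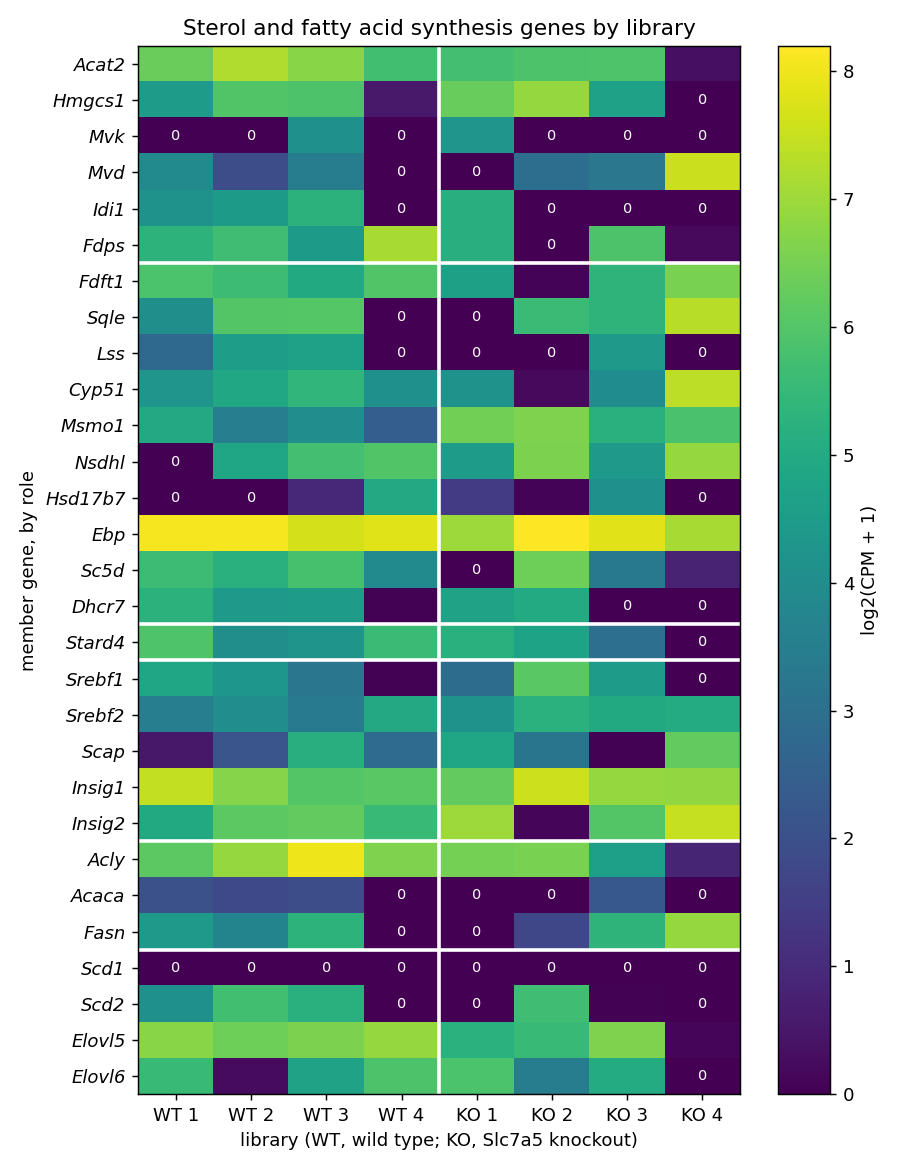
Level of the 29 genes (rows, by role, with white lines between roles) in the 8 libraries (columns), as log2(CPM + 1); a printed 0 marks a library with no count. Ebp is bright throughout, Scd1 has no count in any library, and zeros are scattered over both genotypes, with the most tested members at 0, 10 of 27, in knockout replicate 4.

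Transcripts of these genes were seen unevenly. Of the 27 tested members 11 had a count in all 8 libraries (40.7%), as did 44.6% of all tested genes. The tested members without a count numbered 2, 1, 0 and 7 in wild-type replicates 1 to 4 and 7, 4, 2 and 10 in knockout replicates 1 to 4. Knockout replicate 4 held both the most members without a count and the highest level among all libraries for 8 of the 27, and 5 more had 1 to 15 counts there. Of all tested genes a mean of 93.8% ± 6.09 had a count in the wild-type libraries and 79.7% ± 16.5 in the knockout libraries. A member seen in fewer knockout libraries is therefore to be read beside this general difference. Fewer cells with a transcript, less transcript per cell and technical loss of transcripts cannot be told apart in such pooled cells.

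The first sterol step joins acetyl-CoA units. Acat2, the cytosolic thiolase (chromosome 17, 12942890 to 12960747, GRCm38), was at 79.9, 147, 106 and 51.8 CPM in wild-type replicates 1 to 4 and at 53.2, 59.1, 60.0 and 0.261 in knockout. Only wild-type replicate 4 lay within the knockout range, and knockout replicate 4 was far below the rest. The edgeR log2 fold change was −1.16 (SE 1.18, adjusted p = 0.9999, n = 4 each), and −0.76 without knockout replicate 4. Hmgcs1, which makes HMG-CoA and whose promoter is the first one shown, was at 35.5 ± 29.7 CPM in wild type and 55.0 ± 52.9 in knockout (SD, n = 4 each). It ranged from 0.486 to 61.6 CPM in wild type and from 0 to 118 in knockout. The difference was smaller than the spread within either genotype.

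The steps from mevalonate to farnesyl diphosphate were seen in few libraries or unevenly. Mvk, mevalonate kinase, had 529 counts in wild-type replicate 3, 435 in knockout replicate 1 and 0 in the other libraries, and it did not pass the filter (two-sided exact permutation p = 1 on mean CPM, n = 4 each). Mvd, mevalonate diphosphate decarboxylase, was at 6.67 ± 6.36 CPM in the wild-type libraries and at 0, 6.83, 8.44 and 186 in knockout replicates 1 to 4. The high knockout mean of Mvd thus came from replicate 4, and its estimate turned from higher to lower without that library. Idi1, the isomerase of isopentenyl diphosphate, was seen in 3 wild-type libraries and 1 knockout library, at 19.04 ± 15.4 and 8.47 ± 16.9 CPM. Fdps, which makes farnesyl diphosphate, was at 62.3 ± 52.9 CPM in wild type, with 139.6 CPM in replicate 4, and at 23.7 ± 28.995 in knockout. Its gene model shares exonic bases on the same strand with Gm43738, so reads of the pair can be mixed.

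From squalene onwards the levels were highest for Ebp, the isomerase that moves the sterol double bond (chromosome X, 8185329 to 8193512). Ebp was at 269, 268, 202 and 223 CPM in the wild-type libraries and at 127, 292, 227 and 138 in knockout replicates 1 to 4. Knockout replicates 1 and 4 lay below all wild-type libraries and replicate 2 above them. The log2 fold change was −0.30 (SE 0.36, edgeR adjusted p = 0.9999, n = 4 each), the smallest SE of the 27 tested members. It was −0.58 without knockout replicate 2 and −0.13 without knockout replicate 1. Per kilobase of exon, Ebp was at 104 ± 14.5 CPM in wild type. The next in wild type were Acat2 at 37.8 ± 16.0 and Insig1 at 32.9 ± 16.3 CPM per kilobase, which did not differ beyond their spread. Elovl5 at 28.5 ± 4.15 and Acly at 25.6 ± 15.6 CPM per kilobase followed, again within their spread.

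Msmo1, the oxidase that starts removal of the methyl groups at carbon 4 of the sterol ring (chromosome 8, 64718139 to 64733792), was the member that separated the genotypes. It was at 29.7, 10.4, 15.1 and 4.41 CPM in the wild-type libraries and at 86.2, 96.4, 35.8 and 56.8 in knockout replicates 1 to 4. Every knockout library lay above every wild-type library. Among the 27 tested members this was the 1 gene whose genotypes did not overlap (3.7%), against 6.14% of all tested genes in either direction and 1.52% with knockout higher. The log2 fold change was 2.21 (SE 1.24, unadjusted p = 0.1003, adjusted p = 0.9999 in edgeR, n = 4 each), and in DESeq2 the adjusted p was 0.066. The estimate was 2.27 without knockout replicate 4, and it kept its sign in every alternative fit in which it was estimated. Msmo1 did not pass.

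Other enzymes of the squalene to cholesterol stretch overlapped widely. Sqle, squalene epoxidase, was at 16.0, 63.4, 64.6 and 0 CPM in the wild-type libraries and at 0, 47.1, 39.5 and 159.7 in knockout. Cyp51, the lanosterol demethylase, was at 26.4 ± 11.4 CPM in the wild-type libraries and at 17.4, 0.167, 14.9 and 166 in knockout. For both genes the knockout mean was above the wild-type mean through replicate 4, and both estimates turned lower without it. Nsdhl, which works after Msmo1 in the same demethylation, was at 35.6 ± 27.9 and 63.8 ± 50.4 CPM. Hsd17b7, the ketoreductase of the same complex, was at 7.67 ± 14.8 and 4.52 ± 7.91 CPM, with most of its wild-type signal in replicate 4. Neither of these partner enzymes separated the genotypes.

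Fdft1, squalene synthase, was at 49.5 ± 14.03 CPM in wild type and 39.3 ± 39.6 in knockout, and its gene overlaps Ctsb on the opposite strand. Lss, lanosterol synthase, was seen in 3 wild-type libraries and 1 knockout library (13.3 ± 12.2 and 5.10 ± 10.2 CPM). Sc5d, a late desaturase, was at 38.1 ± 17.9 and 23.1 ± 40.0 CPM, and Dhcr7, the last reductase on its branch, at 20.1 ± 15.5 and 14.2 ± 16.6 CPM. Stard4, a carrier of cholesterol between membranes, was at 35.3 ± 22.2 and 17.04 ± 16.4 CPM. The means of these 5 genes were lower in knockout, each by less than the larger SD of its genotypes. Cyp51 also shares exonic bases with Akap9 and Srebf1 with Rai1, both on opposite strands, and the strand setting of the counting was not given.

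The 5 genes that control SREBP had higher estimates in knockout. Insig1 (chromosome 5, 28071363 to 28078662), itself an SREBP target, was at 172, 104, 62.5 and 68.0 CPM in the wild-type libraries and at 74.5, 191, 119 and 115 in knockout. The ranges overlapped, and the log2 fold change was 0.30 (SE 0.55, edgeR adjusted p = 0.9999, n = 4 each), with −0.010 without knockout replicate 2. Insig2 (chromosome 1, 121304353 to 121332589), which is regulated apart from Insig1, was at 30.5, 68.7, 74.7 and 45.4 CPM in the wild-type libraries and at 127.7, 0.111, 62.8 and 177 in knockout. Knockout replicates 1 and 4 lay above all wild-type libraries, and replicate 2 had almost none. Its log2 fold change was 0.75 (SE 1.27, edgeR adjusted p = 0.9999, n = 4 each), and 0.20 without knockout replicate 4.

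Srebf2 was counted in all 8 libraries, at 10.3, 15.1, 9.57 and 30.1 CPM in wild type and 17.4, 36.8, 30.8 and 31.9 in knockout. Knockout replicates 2 to 4 lay above all wild-type libraries and replicate 1 did not. Srebf1 was at 28.2, 18.8, 8.31 and 0.0441 CPM in the wild-type libraries and at 6.53, 67.8, 22.3 and 0 in knockout, with no order between genotypes. Scap was at 11.1 ± 15.6 and 27.6 ± 33.3 CPM. The values by library of Srebf1, Srebf2, Mvk, Mvd, Fdps, Sqle, Cyp51, Acaca and Fasn, and of Abcg1, Tecr and Ggps1 in the wider list, fall outside the rule for named genes and were chosen after their values were seen. Together the 5 control genes summed to 241, 211, 189 and 150 CPM in wild type and 254, 304, 235 and 399 in knockout replicates 1 to 4 (198 ± 38.4 against 298 ± 73.3). Knockout replicate 3 lay just below wild-type replicate 1, and without knockout replicate 4 the knockout mean was 264 ± 35.5 CPM.

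The fatty acid arm was led by Acly and Elovl5. Acly, ATP citrate lyase, which supplies acetyl-CoA to both routes (chromosome 11, 100476353 to 100528000), was at 69.5, 118, 255 and 97.5 CPM in the wild-type libraries and at 88.9, 91.8, 23.7 and 0.783 in knockout. Wild-type replicate 3 was the highest and knockout replicates 3 and 4 the lowest, while wild-type replicate 1 lay within the knockout range. The log2 fold change was −1.40 (SE 1.05, edgeR adjusted p = 0.9999, n = 4 each). Leaving out wild-type replicate 3 gave −0.88, and leaving out knockout replicate 4 gave −1.004. Elovl5, which lengthens polyunsaturated fatty acids (chromosome 9, 77917364 to 77984519), was at 106, 83.6, 95.1 and 118 CPM in the wild-type libraries and at 36.7, 46.0, 96.3 and 0.104 in knockout. In knockout 3 of 4 libraries lay below all wild-type libraries, and replicate 3 lay among them. Its log2 fold change was −1.17 (SE 1.22, edgeR adjusted p = 0.9999, n = 4 each), and −0.77 without knockout replicate 4.

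Fasn, the fatty acid synthase itself, did not follow. It was at 20.3, 11.99, 38.7 and 0 CPM in the wild-type libraries and at 0, 2.39, 39.6 and 117.5 in knockout, and its estimate turned from higher to lower without knockout replicate 4. Acaca, the acetyl-CoA carboxylase that makes malonyl-CoA, was near the limit of detection, with 112, 69, 92 and 0 counts in wild type and 0, 0, 95 and 0 counts in knockout. Scd2, a stearoyl-CoA desaturase, was seen in 3 of 4 wild-type libraries and in 2 of 4 knockout libraries, 1 of them with a single count, at 26.0 ± 22.7 and 12.7 ± 25.3 CPM. Scd1, the related desaturase that dominates in liver and fat, had 0 counts in all 8 libraries, which allows at most 0.0834 to 0.167 CPM per library by 3 counts (counting error only). Elovl6, which lengthens saturated chains, was at 32.4 ± 25.7 and 24.9 ± 25.7 CPM, and its estimate turned from lower to higher without knockout replicate 4.

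**Figure D3:**
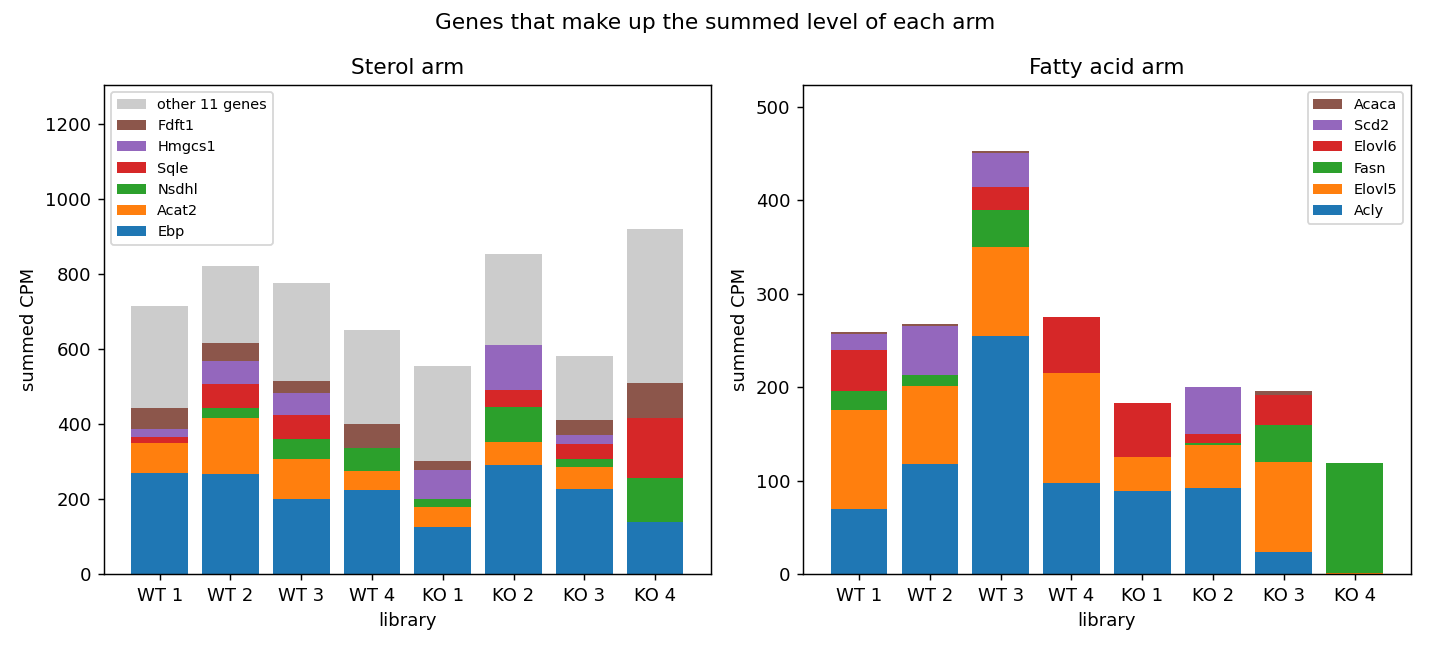
Summed CPM (y axis) of the sterol arm (left) and the fatty acid arm (right) in each library (x axis; WT, wild type; KO, knockout), split by gene; Scd1, at 0, is left out. The fatty acid bars are made mostly of Acly and Elovl5, except in knockout replicate 4, where Fasn makes up 99.3%.

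Set beside each other, the summed CPM of the sterol arm overlapped between genotypes and that of the fatty acid arm did not. The sterol arm summed to 715, 823, 777 and 651 CPM in wild type and 557, 854, 582 and 921 in knockout replicates 1 to 4 (741 ± 74.7 against 728 ± 186, SD, n = 4 each). Without knockout replicate 4, the highest, the knockout mean of the sterol sum was 664 ± 165 CPM, and the genotypes still overlapped. The fatty acid arm summed to 259, 268, 453 and 275 CPM in wild type and 183, 201, 195 and 118 in knockout (314 ± 93.0 against 174 ± 38.1). Each knockout library lay below each wild-type library under all 4 scalings, and the wild-type mean was 1.80 times the knockout mean. Without knockout replicate 4 it was 1.62 times. The sums are given with no test, since the genes were chosen with earlier results of these data known. Of all tested single genes 4.62% likewise had every knockout library below every wild-type library. No such share was computed for sums of genes, which can separate more or less often than single genes.

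The ratio of the sterol sum to the fatty acid sum, which no scaling of the libraries can change, was 2.75, 3.07, 1.71 and 2.37 in wild type and 3.04, 4.26, 2.98 and 7.78 in knockout replicates 1 to 4. Wild-type replicate 2 lay above knockout replicates 1 and 3, so the genotypes overlapped. The mean log2 ratio was 1.28 ± 0.37 in wild type and 2.06 ± 0.65 in knockout, a difference of 0.78, and the difference was 0.48 without knockout replicate 4. Ebp alone made up 32.6% ± 4.90 of the sterol sum in wild type and 27.8% ± 10.9 in knockout. Without Ebp the difference of the log2 ratio was 0.87, and with every member weighted equally it was 0.50. When knockout replicate 4 was also left out, these values were 0.49 and 0.21.

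**Figure D4:**
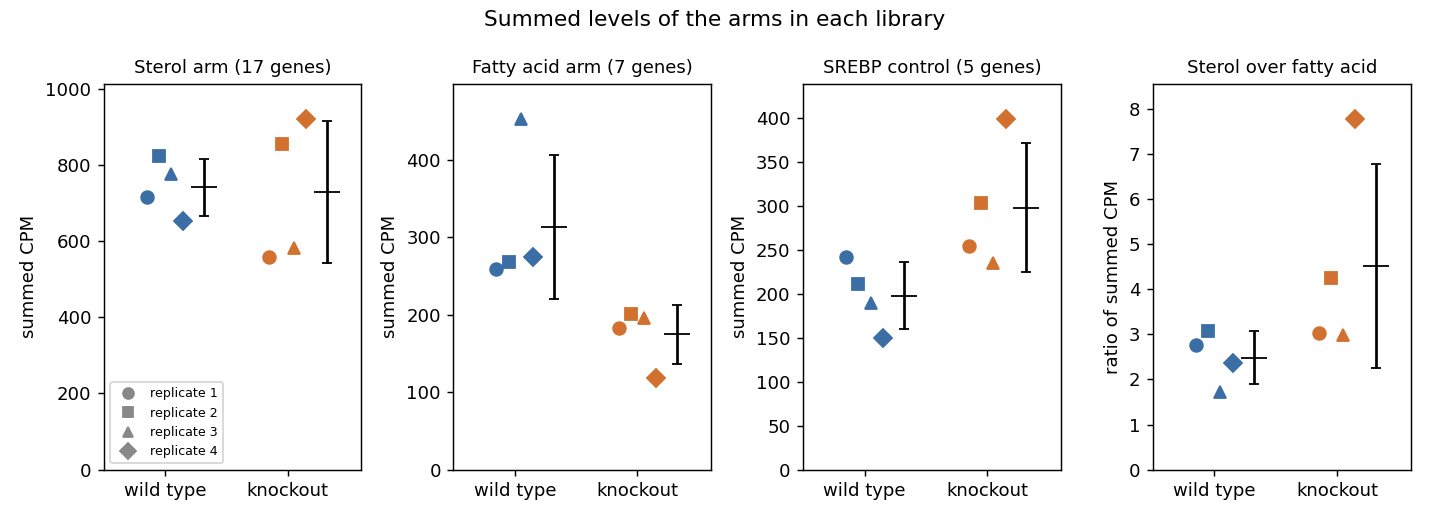
Summed CPM of the sterol arm, the fatty acid arm and the SREBP control genes, and the ratio of the first to the second (y axes, from 0), in wild-type (blue) and knockout (orange) libraries; symbols give the replicate and black bars the mean ± SD of 4. The fatty acid sums of 118 to 201 in knockout all lie under the 259 to 453 CPM of wild type, while the other panels overlap.

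Markers of other cell types and of proliferation were also read in these libraries. Markers of monocytes, macrophages and dendritic cells, led by Cd74 and H2-Ab1 of MHC class II presentation, summed to 3039, 1336, 1229 and 1262 CPM in wild type and to 8741, 9939, 1948 and 10892 in knockout. Of the 8 tested markers of that list 6 had higher estimates in knockout. In edgeR 4 of 8 (Cd74, H2-Aa, H2-Ab1 and H2-Eb1) had an unadjusted p under 0.05, all higher, against 1.87% of all tested genes. Of these 4 DESeq2 called H2-Ab1 (adjusted p = 0.0235). The myeloid markers went both ways, and Lyz2 and Cd14 had lower estimates. Itgam had 595 and 59 counts in wild-type replicates 1 and 2, and 0 in wild-type replicates 3 and 4 and in knockout. DESeq2 gave it an adjusted p of 5.13e-10, but the exact permutation p on mean CPM was 0.429. Itgax was counted only in wild-type replicate 1, with 713 counts. Csf1r had 797 and 550 counts in knockout replicates 2 and 3, 1 in replicate 4 and 0 in replicate 1 and in wild type. Its DESeq2 adjusted p was 0.00531 and its permutation p 0.143. Itgam, Itgax and Csf1r did not pass the filter on low counts. Adgre1, Fcgr1 and Mrc1 had 0 counts in all 8 libraries. Their part in the levels of the lipid genes was not tested. Proliferation genes had lower estimates for 13 of 14 members, with 1570 to 3475 CPM in wild type and 1836 to 2257 in knockout. The highest wild-type sum of both proliferation and fatty acid genes was in replicate 3, and this part was not tested either. Adipocyte markers, whose cells make much fatty acid in the joint's fat pad, were almost absent: 7 of 10 had 0 counts in all 8 libraries, among them Adipoq, Plin1 and Lep, and the sum was 0.0308 to 4.70 CPM in wild type and 0 to 0.337 in knockout.

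The wider pathway was followed with a list of 100 further genes, of which 61 were tested. In edgeR 0 of 61 were called (against 0%), 2 had an unadjusted p under 0.05 (both lower, against 1.97% of all tested genes lower), and 35 of 61 had lower estimates (57.4%, against 55%). In 5 of 61 the genotypes did not overlap (8.2%, against 6.14%), and knockout was lower in each. Over all tested genes the shares were 4.62% with knockout lower and 1.52% with knockout higher. Of the 5, Coq2, Mbtps2 and Slc27a1 had at least 10 counts in 0, 1 and 0 knockout libraries. The filter on low counts kept them through their wild-type libraries, so their separation and p-values are not independent of that selection. DESeq2 called 4 of 68 (against 3.63%), among them Coq2, Fads2 and Slc27a1, each lower.

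Among the other sterol enzymes, Lbr, a sterol reductase of the nuclear envelope, was at 278 ± 53.4 and 286 ± 98.0 CPM. Of this group 2 of 3 tested genes had higher estimates.

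In the isoprenoid branch, which makes ubiquinone, dolichol and prenyl groups, 5 of 9 tested genes had lower estimates. For Coq2, which prenylates the ubiquinone ring, wild type gave 748, 254, 430 and 284 counts and knockout 1, 0, 1 and 0 (edgeR unadjusted p = 0.00460, adjusted p = 0.460). Dhdds, of dolichol synthesis, was at 41.4 ± 13.96 and 7.98 ± 5.72 CPM, with an edgeR estimate of −2.38 (log2, SE 1.82). Ggps1, which makes geranylgeranyl diphosphate, was at 68.0 ± 34.9 CPM in the wild-type libraries and at 39.2, 61.8, 31.4 and 505 in knockout. Fnta, a subunit of protein prenyl transferases, was at 107 ± 38.2 and 104 ± 35.6 CPM. Coq2 and Dhdds were thus the genes of this branch whose genotypes did not overlap, and neither passed in edgeR. The filter kept Coq2 only through its wild-type libraries.

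Of 7 tested genes of SREBP cleavage and sterol-driven degradation 6 had lower estimates. Mbtps2, a protease that frees SREBP and whose model shares exonic bases with Yy2, was at 10.3 ± 6.93 CPM in the wild-type libraries and at 0, 3.001, 0 and 0 in knockout (log2 fold change −3.78, SE 2.65, edgeR adjusted p = 0.9999). Aup1 was at 178 ± 52.4 and 134 ± 77.6 CPM and Rnf145, a sterol-responsive ubiquitin ligase, at 85.8 ± 48.2 and 81.6 ± 61.7 CPM. Genes of cholesterol uptake and storage went both ways, with 4 of 6 higher. Npc2, a lysosomal cholesterol carrier, was at 429 ± 49.99 and 549.5 ± 228 CPM, and Soat1, which esterifies cholesterol, at 111 ± 47.4 and 47.2 ± 42.0 CPM.

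Of 5 tested genes of the LXR and export group 4 had higher estimates. Abcg1, a sterol exporter and LXR target, was at 1109, 1054, 1269 and 723 CPM in wild type and 1744, 1953, 1342 and 769 in knockout replicates 1 to 4. In knockout 3 of 4 libraries lay above all wild-type libraries and replicate 4 lay among them. Nr1h2, which encodes LXR beta, was at 169 ± 20.3 and 93.0 ± 53.7 CPM.

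The fatty acid genes outside the arm had mostly lower estimates as well. Of 11 tested genes of synthesis, elongation and desaturation 9 were lower, with a median log2 fold change of −0.52, and they summed with the untested ones to 671 to 917 CPM in wild type and 380 to 714 in knockout. Tecr, which completes each elongation round, was at 281, 283, 235 and 200.2 CPM in wild type and 108, 41.6, 121 and 253 in knockout. Elovl1, of very long chains, was at 158 ± 70.1 and 135 ± 79.0 CPM. Genes of fatty acid oxidation, the opposite process, had lower estimates for 9 of 11, with a median of −0.47, and summed to 852 to 1173 and 554 to 886 CPM. Acaa2, a thiolase of that pathway, was at 55.8, 122, 81.6 and 56.5 CPM in the wild-type libraries and at 18.5, 0, 53.8 and 0 in knockout (log2 fold change −2.13, SE 1.95, edgeR adjusted p = 0.9999). Leaving out knockout replicate 3 moved this estimate to −3.68. Acadvl, the very long chain dehydrogenase, was at 206 ± 53.2 and 87.3 ± 61.5 CPM, and Etfa, an electron carrier, at 224 ± 69.4 and 214 ± 78.5 CPM.

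Uptake, activation and storage of fatty acids ran the other way, with 7 of 9 tested genes at higher estimates and a median of 0.29. Dgat1, which makes triglyceride, was at 1770 ± 587 and 2539 ± 717 CPM, and Acsl4, which activates polyunsaturated fatty acids, at 246 ± 90.8 and 378 ± 116 CPM. Slc27a1, a fatty acid transporter, was among the other 2: the wild-type replicates held 977, 295, 902 and 862 counts and the knockouts none (0 in each). The knockout level was at least 732-fold lower against 3 counts over the pooled knockout libraries, which covers counting error only. In edgeR the unadjusted p was 0.00258 and the adjusted p 0.460, and the filter kept the gene only through its wild-type libraries. Which of these gene groups differ from one another was not tested.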

How the data were processed

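RNA-seq counts of 8 libraries (4 wild-type and 4 Slc7a5 knockout) were used. The authors deposited raw counts per gene symbol, made with HISAT2 2.1.0, featureCounts and edgeR 3.28.1 on mm10, as far as named per the submitters' processing notes. The annotation and strand setting are not given in the sources used here. In R 4.3.3, edgeR 4.0.16 filtered low counts (filterByExpr, minimum count 10, minimum total 15), scaled by TMM and tested knockout against wild type (robust quasi-likelihood, Benjamini-Hochberg over 8489 genes, threshold 0.05). CPM uses the TMM effective library size. Lengths, positions and GC content came from GENCODE M21 (GRCm38, the coordinates of mm10). Exact permutation tests with 4 against 4 libraries cannot go below 0.0286. The scripts were tested on simulated data. The members and lists were chosen with earlier results of these data known. Per-library values and fold changes were given for members with a mean of at least 50 CPM, an unadjusted p under 0.05, genotypes that do not overlap, or 0 counts in 1 genotype; and, of the wider list, for genes meeting the last 3 rules, with levels for the 2 most abundant per role. Some genes of the wider list are not reported here. Markers of synovial fibroblasts summed to 103 to 157 CPM in wild type and 39.3 to 129 in knockout. Thy1, which mouse T cells express, was at 61.9 to 143 and 37.1 to 106 CPM. It made up most of the sum in every library except wild-type replicate 4, where Dcn was at 64.5 CPM and Prg4 at 25.4 CPM. Lum had 387 counts in knockout replicate 3, and Col1a2 and Pdgfra were at 0 in all 8 libraries. Markers of B cells summed to 0 to 19.8 and 0 to 39.6 CPM, and of neutrophils to 0 to 91.3 and 0 to 95.6 CPM. Alternatives were other filters, scalings and tools (limma 3.58.1, DESeq2 1.42.0), a replicate block, each library left out, a GC offset, both replicates 4 left out and the ratio without Ebp; the last 3 were chosen after seeing the data.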

Additional observations from a re-analysis of the deposited data

Results flagged for a closer look

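Acat2 in knockout replicate 4 was at 0.261 CPM, a gap to the other 3 knockout libraries wider than Dixon's 95% critical value for 4 samples allows. The summed level of the fatty acid arm in wild-type replicate 3, at 453 CPM, stood apart from the other wild-type libraries in the same way, and Acly made up 56.4% of it. Of 24 groups of 4 libraries 2 met this rule, and chance gives about 1 in 20 such groups.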

How the results depend on the processing

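Of the 27 tested members 13 changed the sign of their estimate in at least 1 of 19 alternative fits: 0 under the 3 other scalings, 0 without the filter, 0 of the 5 members left by the stricter filter and 0 in DESeq2, 6 in limma voom, 8 in limma voom with quality weights, 7 with the replicate block, 2 with the GC offset, 7 without both replicates 4 and 10 when single libraries were left out. The number of called genes was 387 in DESeq2, 4 in limma voom and 4 with quality weights, against 0 in edgeR, and 0 with any library left out; called members stayed at 0 throughout. DESeq2 gave log2 fold changes of −9.20 for Coq2 and −11.52 for Slc27a1, both called. The sterol median was 0.88 with the stricter filter, which left 2 of its genes, −1.81 in limma voom and −1.73 with quality weights. In the same fits, in that order, the median of all tested genes was 0.07, −1.28 and −0.36. The cause of these shifts was not tested. With single libraries left out the sterol median ranged from −0.47 to −0.23, the fatty acid median from −1.26 to −0.69 and the difference of the log2 ratio from 0.48 to 0.94. Insig2 turned to −0.97 in limma voom and −0.85 with quality weights, Ebp to 0.17 with the GC offset, and Insig1 ranged from −0.010 to 0.67 with single libraries left out (cause not tested). With the GC offset the sterol median was 0.00473 and the fatty acid median −0.98. Same-numbered libraries did not deviate together (correlations of −0.0218 to 0.0530), so the numbers were not taken as pairs. With the replicate block 0 genes were called, the sterol median was −1.03 and the fatty acid median −2.05, against −0.68 over all tested genes. Mbtps2 ranged from −11.11 to −3.35, Acaa2 from −3.68 to −1.72 and Ebp from −0.58 to −0.13 with single libraries left out, and Acaa2 was −6.28 with the replicate block and −6.30 in limma voom. With members weighted equally and knockout replicate 4 left out, chosen after seeing the data, the difference of the log2 ratio was 0.21. Uneven detection limits the precision: 11 of the 27 tested members had a count in every library.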
